A study of Rattus norvegicus with 16 samples.

Results

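Aquaporins are membrane channels that let water, and in some members glycerol, cross the cell membrane, and carbonic anhydrases are zinc enzymes that interconvert carbon dioxide and bicarbonate. The genes described here are 5 aquaporins (Aqp1, Aqp3, Aqp5, Aqp7 and Aqp8) and 3 carbonic anhydrases (Car2, Car3 and Car4), taken by exact match of the gene name in the array files. They made up 8 of the 19776 gene names on the array and 8 of its 30367 probes, 1 probe per gene, and all 8 were among the 21174 probes bright enough to be tested.

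In the gut, these families serve secretion and absorption. Carbonic anhydrase in the acid-secreting parietal cell supplies protons to the gastric pump and returns bicarbonate to the blood, and the membrane-bound form on the brush border works beside bicarbonate and proton exchangers. Aquaporins carry water across the same epithelia, and the aquaglyceroporins also carry the glycerol that fat cells and enterocytes release or take up.

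Gene expression was measured in suckling Wistar rats (Wistar Han in the methods), in the stomach and in the middle part of the intestine. Control rats (C) were given saline. Rats labelled OH were given obestatin, a gut peptide cut from the same precursor as ghrelin, enterally at 250 nmol/kg, 2 times a day from day 14 of life, and tissues were taken on day 21. The labels and the methods give this dose in nmol/kg, whereas some figure legends of the study give it in micrograms per kg. Each tissue of each treatment was measured on 4 arrays, giving the groups C stomach and C middle intestine, and OH stomach and OH middle intestine. Every array carried the Cy5-labelled sample and, in Cy3, the same pool of RNA from all rats, with no dye swap. Values are log2 ratios of sample to pool signal, and below 0 the Cy5 signal is under the Cy3 signal of the pool. Without a dye swap, a dye bias of a probe cannot be told apart from its level against the pool. The methods sample 4 rats per group for both tissues and also say that each array stands for a specific rat, so whether a stomach and an intestinal array share a rat is not given. Both treatments were enteral, so the groups share that handling. In bulk tissue, fewer cells of a type and less RNA per cell cannot be told apart.

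Each group lay on a slide of its own, and both C slides were scanned on another day than both OH slides, so treatment, slide and scan day cannot be told apart. The methods give each treatment its own litters, so litter cannot be told apart from treatment either. They do not say which litters the rats on the arrays came from. The median raw signal was 163 to 328 in Cy5, and in Cy3 it was 188 to 195 on C slides against 341 to 399 on OH slides. The tissue labels were checked against marker genes. All 8 oxyntic and surface stomach genes were called higher in stomach in C and in OH rats, and 12 of 14 enterocyte genes were called lower in both, while Cdx1 was called higher in C stomach (0.37, adjusted p = 0.0226). None of the 4 colon markers was bright enough to be tested. Arrays of a group correlated with r from 0.707 to 0.943 across probes, and 3 stomach arrays stood apart in their marker genes (C stomach replicate 2 and OH stomach replicates 2 and 4, described below).

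The probes are 60-base oligonucleotides. The probes of Aqp8 and Car3 are shown because both lie in coding sequence. Car3 also gave the widest range of values, and Aqp8 the only ratios that were below 0 on all 16 arrays. On the rn4 build named by the array design, the Aqp8 probe lies at chr1:182335905-182335964 on the plus strand and begins at base 763 of its transcript. The Car3 probe lies at chr2:88109979-88110038 on the minus strand and begins at base 363.
Aqp8 probe: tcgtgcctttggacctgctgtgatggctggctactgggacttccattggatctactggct
Car3 probe: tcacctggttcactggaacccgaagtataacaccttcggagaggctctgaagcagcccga

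The probes of Aqp3 (chr5:58501847-58501906) and Aqp7 (chr5:58433937-58433996) lie close to each other on the minus strand, as do those of Car2 (chr2:88077739-88077798) and Car3. The Aqp1 probe lies at chr4:84110125-84110184, the Aqp5 probe at chr7:138340966-138341024 and the Car4 probe at chr10:73237515-73237574, all on the plus strand. Aqp1, Aqp3 and Car2 were each spotted 10 times on an array and the other genes 2 times.

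The stretches before the start of the genes were read from RefSeq tables of the GRCr8 build, which held 5 of the 8 genes (Aqp1, Aqp3, Aqp5, Aqp8 and Car4). The letters TATAAA, the TATA box, and GGGCGG, the GC box, which do not overlap each other, were searched on both strands in the 250 bases before the start. TATAAA stood before Aqp1 and Aqp3, and in 12.9% of 33469 promoters. GGGCGG stood before Aqp1, Aqp3 and Aqp5, and in 30.5% of promoters. The last 100 bases before the start are shown for Aqp3, which was higher in stomach, and Aqp8, which was higher in the intestine, with both motifs in capitals. They lie at chr5:61040684-61040783 on the minus strand and chr1:187424343-187424442 on the plus strand. The Aqp8 stretch holds neither motif, which says only that these letters are not in it.
Aqp3: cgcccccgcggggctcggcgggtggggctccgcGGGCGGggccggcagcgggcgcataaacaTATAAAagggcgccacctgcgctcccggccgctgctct
Aqp8: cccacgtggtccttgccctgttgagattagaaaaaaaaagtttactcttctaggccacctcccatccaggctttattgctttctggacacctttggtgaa

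In control rats the genes divided by tissue. Aqp3, Aqp5, Car2 and Car3 were higher in stomach than in middle intestine, and Aqp7, Aqp8 and Car4 were lower, at an adjusted p under 0.05 in limma. That is 4 genes called higher, against 22.7% of all tested probes, and 3 called lower, against 22.3%. For 8 of 8 genes the arrays of the groups did not overlap, against 43.7% of all tested probes. Aqp5 and Car3 were bright enough to be tested through stomach. Each was well above background in Cy5 on 2 of 8 spots in C middle intestine. With only probes well above background on all 16 arrays, which left both out, 5 genes were called (Aqp3, Aqp7, Aqp8, Car2 and Car4). The differences on the log2 scale ran from -3.36 for Car4 to 5.42 for Car3, beside a median over all probes of -0.0073.

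**Figure D1:**
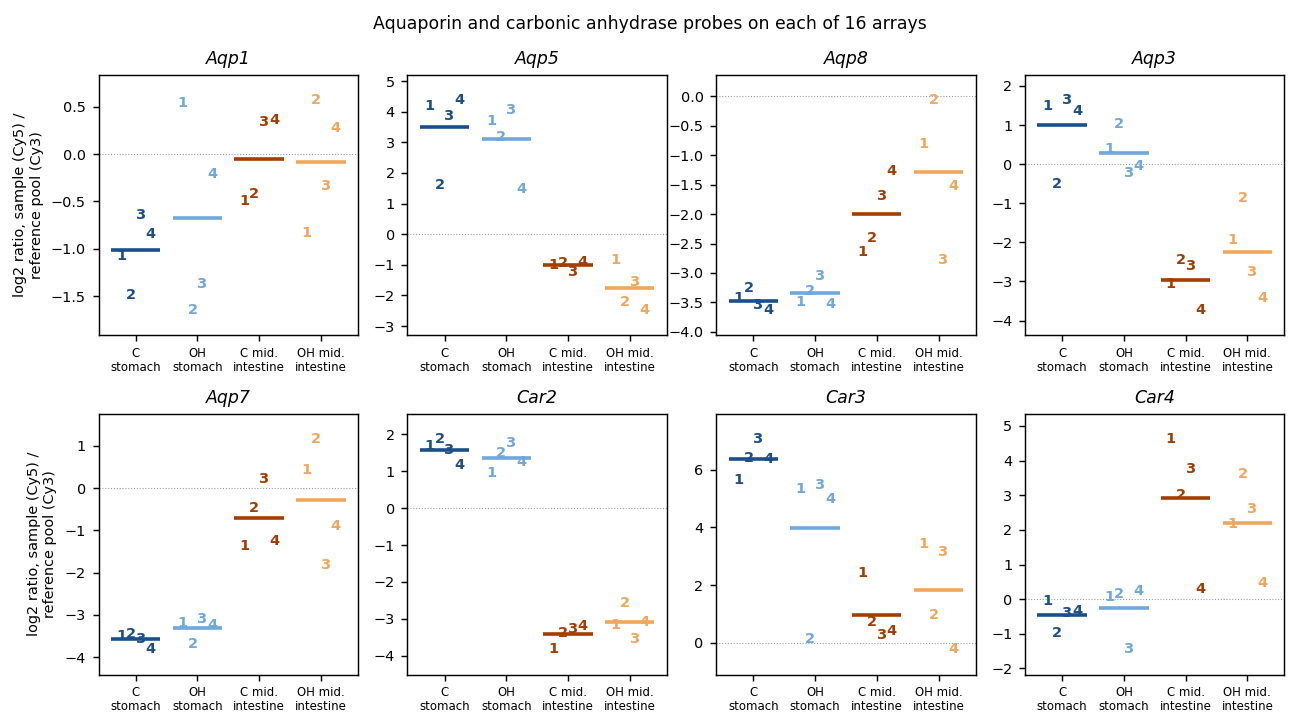
Log2 ratio of sample (Cy5) to reference pool (Cy3) on each array, by group, for the 8 genes. Digits give the replicate number, bars the group means, and the dotted line at 0 marks equal signal of sample and pool. Car2 shows a wide gap between the tissues, while single arrays stand apart for Aqp3 and Aqp5 (C stomach 2), Aqp5 (OH stomach 4), Car3 (OH stomach 2) and Car4 (OH stomach 3).

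Of the water channels, Aqp5, known from the apical membrane of secretory glands, had log2 ratios of 4.19, 1.60, 3.87 and 4.39 on C stomach replicates 1 to 4 and of -0.99, -0.95, -1.24 and -0.90 on C middle intestine replicates 1 to 4. All stomach arrays were above all intestinal arrays, and replicate 2 was the low one in stomach. The difference was 4.54 with an SE of 0.61, or 23.2-fold (adjusted p = 3.34e-05). Aqp5 was well above background in Cy5 on 8 of 8 spots in C stomach but on 2 of 8 in C middle intestine, so its intestinal level was near the limit of the measurement. With normexp background correction (offset 50) and loess the difference was 2.97. The offset is added to both channels and draws the ratios of dim spots toward 0.

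Aqp8, a water channel of intestinal absorptive cells, was at -3.43, -3.26, -3.55 and -3.63 in C stomach and at -2.65, -2.41, -1.70 and -1.26 in C middle intestine. Every intestinal array exceeded every stomach array, although the ratios of all of them were below 0. The difference was -1.46 with an SE of 0.44 (adjusted p = 0.0142), the smallest in size among the called genes.

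Aqp1, the water channel of capillary endothelium and red cells, was at -1.08, -1.49, -0.64 and -0.84 in C stomach and at -0.50, -0.42, 0.34 and 0.36 in C middle intestine. The groups were separated by a gap of 0.14 on the log2 scale. The difference of -0.96 with an SE of 0.44 did not pass the threshold (adjusted p = 0.0867). It passed with scale normalization between arrays (-1.13, adjusted p = 0.0265), with Cy5 alone (-1.34, adjusted p = 0.0338) and with only these arrays in the limma fit (adjusted p = 0.0177).

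The aquaglyceroporins went opposite ways. Aqp3, found in the basal layers of squamous epithelium and the basolateral membrane of gut epithelium, was at 1.50, -0.52, 1.65 and 1.35 in C stomach and at -3.08, -2.46, -2.61 and -3.73 in C middle intestine. The groups did not overlap, and replicate 2 was the low stomach array. The difference was 3.97 with an SE of 0.55, or 15.6-fold (adjusted p = 4.7e-05).

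Aqp7, the glycerol channel of fat cells that is also present in the intestinal epithelium, was at -3.49, -3.44, -3.57 and -3.81 in C stomach and at -1.38, -0.46, 0.23 and -1.24 in C middle intestine. Stomach arrays lay close together and far below the intestinal arrays. The difference was -2.87 with an SE of 0.51 (adjusted p = 0.000379).

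Of the cytosolic carbonic anhydrases, Car2, the high-activity enzyme of parietal and surface mucous cells, was at 1.67, 1.87, 1.58 and 1.17 in C stomach and at -3.82, -3.39, -3.26 and -3.18 in C middle intestine. Its arrays lay close together within each group, with SDs of 0.29 in both, and the groups were apart by a gap of 4.36. The difference was 4.99 with an SE of 0.23, or 31.8-fold (adjusted p = 4.46e-10).

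Car3, a low-activity enzyme that is abundant in fat and in slow skeletal muscle, was at 5.65, 6.39, 7.06 and 6.38 in C stomach and at 2.42, 0.72, 0.26 and 0.42 in C middle intestine. The difference of 5.42 with an SE of 1.07, or 42.7-fold, had the largest SE of the 8 genes (adjusted p = 0.000932). Its size rests on dim signals. In Cy5 the probe was well above background on 8 of 8 spots in C stomach and 2 of 8 in C middle intestine, and the pool was well above background in Cy3 on 0 of 8 spots in both groups. With normexp and loess the difference was 2.67 and still called (adjusted p = 0.000867), but smaller than those of Car2 (4.87), Aqp3 (3.86) and Aqp5 (2.97). The rank of Car3 among the genes thus depends on the background correction and its offset.

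Car4, the membrane-anchored enzyme of the brush border, was at -0.06, -0.97, -0.40 and -0.34 in C stomach and at 4.62, 3.01, 3.75 and 0.30 in C middle intestine. Replicates 1 to 3 of the intestine were far above the stomach arrays and replicate 4 was just above them. The difference was -3.36 with an SE of 0.79 (adjusted p = 0.0033).

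**Figure D2:**
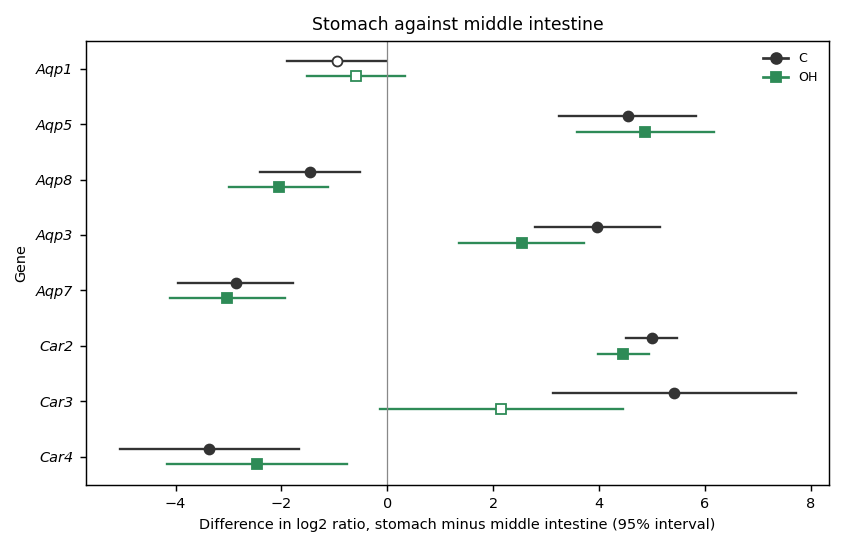
Difference in log2 ratio between stomach and middle intestine for each gene, in C rats (circles) and OH rats (squares), with 95% intervals, filled where the adjusted p was under 0.05. The directions are the same in C and OH rats for all 8 genes, and Car3 is the gene whose 2 estimates, 5.42 and 2.15, lie farthest apart.

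In obestatin-treated rats 3 genes were called higher in stomach (Aqp3, Aqp5 and Car2), against 19.2% of all tested probes, and 3 were called lower (Aqp7, Aqp8 and Car4), against 19.1%. The arrays did not overlap for 6 of 8 genes, against 35.2%. Among these, Aqp5 was well above background in Cy5 on 1 of 8 spots in OH middle intestine. The median over all probes was 0.0091. All 8 differences had the direction seen in C rats.

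For Aqp5, the OH stomach arrays were at 3.69, 3.19, 4.05 and 1.49 and the OH middle intestine arrays at -0.84, -2.21, -1.55 and -2.48. Here replicate 4 was the low stomach array, and it was still above every intestinal array. The difference was 4.87 with an SE of 0.61 (adjusted p = 1.83e-05), and 2.77 with normexp and loess. In OH middle intestine 1 of 8 Aqp5 spots was well above background.

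For Aqp8, the OH stomach arrays were at -3.50, -3.31, -3.05 and -3.52 and the OH middle intestine arrays at -0.81, -0.06, -2.77 and -1.53. The intestinal arrays spread widely but stayed above the stomach arrays, by a gap of 0.28. The difference was -2.05 with an SE of 0.44 (adjusted p = 0.00193). Aqp7 was at -3.18, -3.70, -3.10 and -3.25 in stomach and at 0.42, 1.16, -1.82 and -0.90 in the intestine, again without overlap, with a difference of -3.02 with an SE of 0.51 (adjusted p = 0.000278).

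Aqp1 overlapped between the tissues of OH rats, with 0.53, -1.64, -1.37 and -0.21 in stomach and -0.83, 0.57, -0.34 and 0.27 in the intestine. Its difference was -0.59 with an SE of 0.44 (adjusted p = 0.308). Aqp3 was at 0.38, 1.02, -0.22 and -0.06 in stomach and at -1.95, -0.87, -2.77 and -3.43 in the intestine, with no overlap and a difference of 2.54 with an SE of 0.55 (adjusted p = 0.00218).

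Car2 was at 0.96, 1.50, 1.76 and 1.26 in OH stomach and at -3.15, -2.57, -3.54 and -3.10 in OH middle intestine. The tissues were again far apart, by 4.46 with an SE of 0.23 (adjusted p = 1.53e-09).

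Car4 was at 0.06, 0.14, -1.45 and 0.24 in OH stomach and at 2.16, 3.61, 2.60 and 0.46 in OH middle intestine. As in C rats, replicate 4 was the low intestinal array. The difference was -2.46 with an SE of 0.79 (adjusted p = 0.0235). This call was lost without OH stomach replicate 3 (adjusted p = 0.0695), without OH middle intestine replicate 2 (adjusted p = 0.0716) or replicate 3 (adjusted p = 0.0569), and with ANOVA followed by Tukey's HSD, the methods' own test (adjusted p = 0.0622).

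Car3 was at 5.33, 0.13, 5.47 and 4.99 in OH stomach and at 3.44, 0.97, 3.14 and -0.22 in OH middle intestine. Stomach replicate 2 lay among the low intestinal arrays, so the groups overlapped. On that array 0 of 2 spots were well above background in Cy5 and 0 of 2 in Cy3. In OH middle intestine 4 of 8 spots were well above background in Cy5, so the sizes given here are uncertain. The difference of 2.15 with an SE of 1.07 was not called (adjusted p = 0.13). Without stomach replicate 2 the difference was 3.44 and was called (adjusted p = 0.00357). With normexp and loess it was also called (1.58, adjusted p = 0.0258).

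Within a tissue, several of the genes moved from array to array together with marker genes of a region or cell type. The lists of these markers were averaged per array over the genes bright enough to be tested. Each pattern below is given as measured, and the part of the cell mixture in the differences above was not tested.

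Aqp5 followed the markers of the pyloric gland, Tff2, Gast and Pdx1 (3 of 4 listed genes; Muc6 was not found by name). Their mean was 2.59, -1.67, 2.25 and 2.60 on the C stomach arrays and 1.61, 0.65, 2.02 and -1.94 on the OH stomach arrays. The arrays low in these markers, C stomach 2 and OH stomach 4, were the arrays low in Aqp5.

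Aqp3 stood beside the squamous markers of the forestomach (10 of 11 listed genes, all but Ivl). Their mean was 1.01, 0.26, 1.64 and 1.24 in C stomach and 0.07, 1.04, 0.19 and 0.27 in OH stomach. C stomach 2 was the lowest of the C arrays and OH stomach 2 the highest of the OH arrays in both Aqp3 and these markers. C stomach 2 was also the lowest of its group in the pyloric, adipocyte and striated muscle markers. The order of the other OH arrays differed, since OH stomach 1 was second in Aqp3 and lowest in the markers.

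Car3 stood beside the adipocyte markers (6 of 9 listed genes: Plin1 and Lep were too dim and Plin4 was not found by name). Their mean was 1.60, 0.52, 1.48 and 1.51 in C stomach, 1.17, -1.14, 1.06 and 1.14 in OH stomach, -0.62, -1.33, -1.37 and -0.95 in C middle intestine and -0.23, -1.33, -0.49 and -0.85 in OH middle intestine. OH stomach 2 was the low stomach array in both, and C middle intestine 1 and OH middle intestine 1 and 3 were the high intestinal arrays in both. C stomach 2 had the lowest adipocyte mean of its group. Its Car3 ratio of 6.39 was not low, but there the pool was not well above background, and its Cy5 signal of 7.56 was the lowest of the group, against 8.75 to 9.33. It was also the C stomach array lowest in striated muscle markers (13 of 16 listed genes), at -0.86 against 2.91 to 3.72 on the others.

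Aqp7 and Aqp8 stood beside the enterocyte markers (14 of 14 listed genes). Their mean was -0.49, -0.15, 0.26 and -0.17 in C middle intestine and 0.52, 1.17, -0.73 and -0.02 in OH middle intestine. In OH middle intestine, replicates 2, 1, 4 and 3 stood in that order from high to low in Aqp7, in Aqp8 and in the markers. In C middle intestine, replicate 1 was the lowest in all of them, and Aqp7 had the order of the markers. Aqp8 did not, since replicate 4 was its highest array (-1.26) but had a marker mean of -0.17, below those of replicates 2 and 3. Car4 did not have the order of these markers in either group. C replicate 1 was highest in Car4 (4.62) and lowest in the markers. OH replicate 2 was highest in both, but OH replicate 4 was lowest in Car4 (0.46) and OH replicate 3 in the markers.

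Aqp1 stood beside the endothelial markers in OH stomach (8 of 9 listed genes, all but Tek), whose mean was -0.15, -0.83, -1.28 and -0.24. Replicates 1 and 4 were the high arrays in both. The C stomach arrays also stood in the same order in both. In middle intestine the orders differed. OH replicate 2 was highest in Aqp1 (0.57) with a marker mean of -0.78, and OH replicate 4 was highest in the markers (-0.28). C replicate 3 was lowest in the markers (-0.84) but not in Aqp1 (0.34). Erythroid markers (6 of 9 listed genes) had a mean of -3.19 or less on every array.

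**Figure D3:**
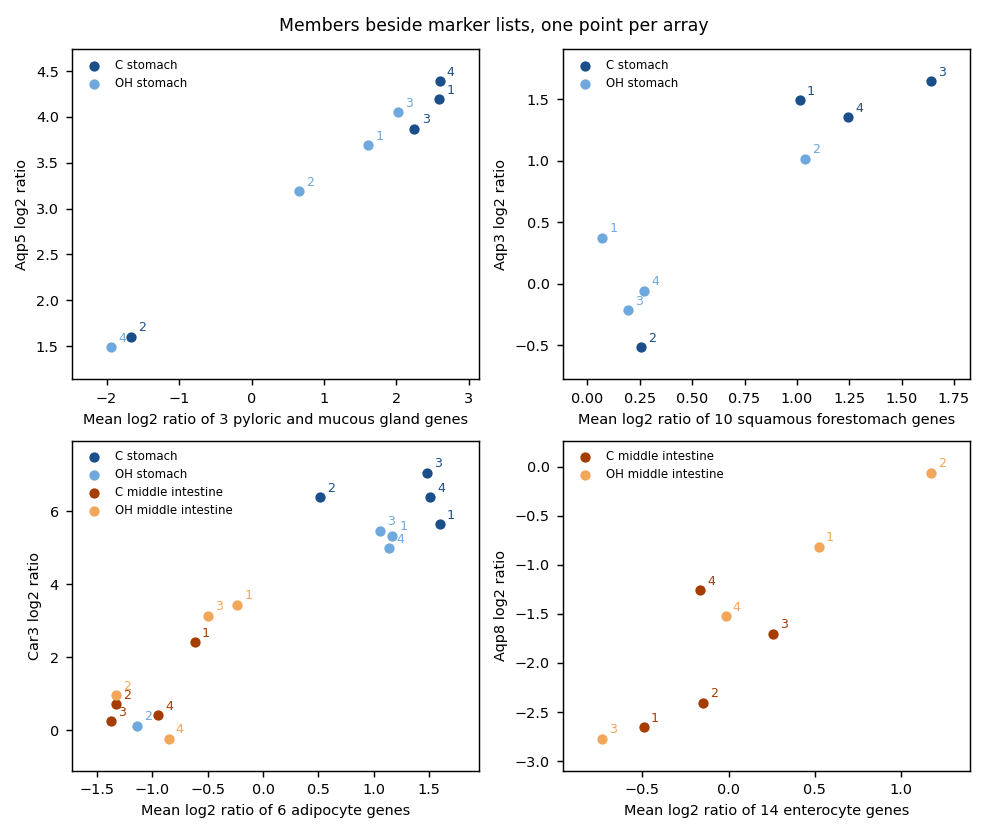
Log2 ratio of Aqp5, Aqp3, Car3 and Aqp8 against the mean log2 ratio of a list of marker genes, 1 point per array labelled by replicate. The arrays low in Aqp5 (C stomach 2 and OH stomach 4) are low in the 3 pyloric genes, and the stomach array low in Car3 (OH stomach 2) is low in the 6 adipocyte genes.

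The reference channel was not equal on all arrays, although each array held the same pool. In C middle intestine the Cy3 signal of Car4 was 7.19, 6.26, 6.64 and 6.06 on the log2 scale, in the same order as its Cy5 signal of 11.8, 9.27, 10.4 and 6.36. In C stomach the Cy3 signal of Aqp5 was 6.14, 4.93, 5.92 and 6.78 and its Cy5 signal 10.3, 6.54, 9.79 and 11.2, again in the same order. Between the tissues of C rats, Car4 differed by -4.13 in Cy5 and -0.76 in Cy3, and Aqp5 by 5.05 in Cy5 and 0.51 in Cy3. Of the brighter genes, Aqp1 differed by -1.47 in Cy5 and -0.52 in Cy3, and Car2 by 4.99 in Cy5 and -0.0014 in Cy3.

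The most similar profiles were sought by the root mean square difference of log2 ratios over the 16 arrays, after centring each probe. For Aqp3 the nearest were Oasl, Capn9 and Dsg1, at 0.61 each, and for Aqp5 they were Ppy, Fat2 and Eps8l1, at 0.69 to 0.70. For Aqp7 they were Apoc3 (0.29), Guca2b (0.30) and Lct (0.32), and for Aqp8 they were Myo7a (0.25), Alpi (0.30) and Ace (0.31). Car2 lay nearest to Paqr5 (0.32), Fa2h (0.32) and Pgc (0.33), Car3 to Scd1 (1.00), Adipoq (1.01) and Cfd (1.38), and Car4 to Cubn (0.72), Spink3 (0.78) and MGC105567 (0.80). Aqp1 varied too little over the arrays, with an SD of 0.73, for such a search.

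The remaining members of both families were read from lists. Of 6 other aquaporins, 5 were bright enough to be tested and Aqp6 was not. In C rats 0 were called higher and 2 lower in stomach, where 22.7% and 22.3% of all tested probes were called, with a median difference of -0.32. Aqp11, an intracellular aquaporin, was lower by -2.08 with an SE of 0.26 (adjusted p = 2.03e-05), and Mip, the lens aquaporin, by -0.49 with an SE of 0.15 (adjusted p = 0.0142). Aqp2 (0.028), Aqp9 (0.34) and Aqp12a (-0.32) were not called. In OH rats 0 were called higher and 3 lower, against 19.2% and 19.1% of all tested probes. The 3 were Aqp11 (-2.15), Mip (-0.49) and Aqp12a (-1.19).

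Of 13 other carbonic anhydrases, 9 were tested, Car5a and Car12 were too dim, and Car1 and Car10 were not found by name. In C rats 4 were called higher in stomach and 4 lower, against the same 22.7% and 22.3% of all tested probes, with a median of -0.11 beside -0.0073 over all probes. Car5b, a mitochondrial enzyme, was well above background on 4 of 4 arrays in C stomach and on none in C middle intestine. It was bright enough to be tested through stomach, and its call (adjusted p = 6.47e-09 in limma) rests on ratios with undetected intestinal signal. It was at least 4.51-fold higher in stomach, a bound that this p does not test. That bound sets the stomach mean against the higher of the dimmest detected signal and the signal of the probe itself on each intestinal array, after normexp, loess and quantile normalization of the average signal, and is open to dye bias. Car9, a surface enzyme, was higher by 3.04 with an SE of 0.29 (adjusted p = 1.08e-06), Car13 by 1.24 (adjusted p = 0.0127) and Car11 by 0.92 (adjusted p = 0.00596). Car8 (-1.24), Car14 (-0.93), Car15 (-0.85) and Car6 (-0.77) were lower, and Car7 (-0.11) was not called. In OH rats 3 were called higher (Car5b, Car9 and Car11) and 3 lower (Car8, Car14 and Car15), against 19.2% and 19.1%, with a median of 0.27.

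**Figure D4:**
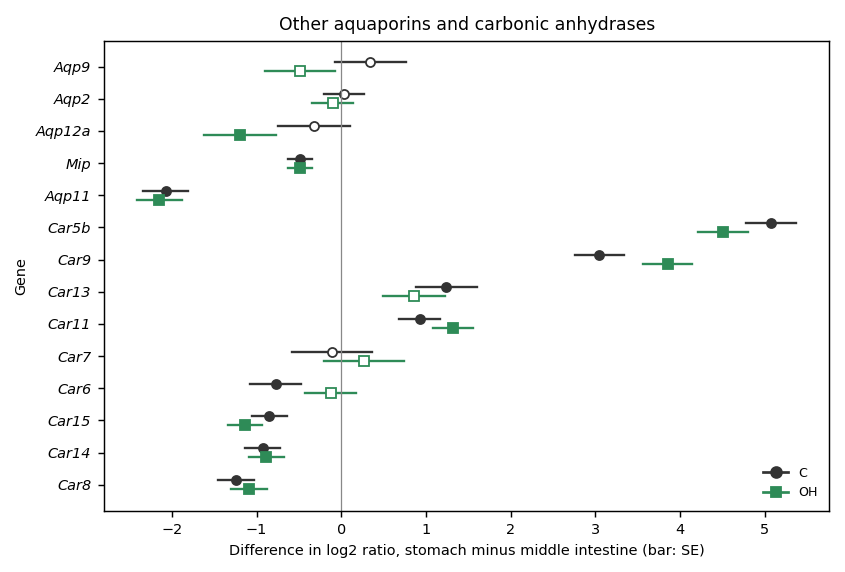
Difference in log2 ratio between stomach and middle intestine for 5 other aquaporins and 9 other carbonic anhydrases, in C rats (circles) and OH rats (squares), with SE bars, filled where the adjusted p was under 0.05. Car5b and Car9 lie farthest to the side of the stomach and Aqp11 farthest to the side of the intestine, and the Car5b ratio is set against an intestinal signal not well above background.

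Transporters that work beside carbonic anhydrases were read in the same way. Of 17 tested genes of bicarbonate, chloride and proton transport, 6 were called higher and 4 lower in C stomach, against 22.7% and 22.3% of all tested probes, with a median of -0.22. In OH rats 6 and 6 were called, against 19.2% and 19.1%, with a median of 0.13. The sodium/proton exchanger Slc9a4, a gene of gastric epithelium, was at least 11.3-fold higher in C stomach. The anion transporter Slc26a7 was at least 3.61-fold higher there. Both values are bounds of the same kind as for Car5b. Both genes were bright enough through stomach and undetected in C middle intestine. Their calls in limma (adjusted p = 2.66e-08 and 6.32e-09) are on the ratios and do not test these bounds. The anion transporter Slc26a9 was higher by 5.33 with an SE of 0.27 (adjusted p = 1.45e-09), with 2 of 4 arrays in C middle intestine well above background. The chloride/bicarbonate exchanger Slc26a3 was lower by -4.32 with an SE of 0.37 (adjusted p = 4e-07).

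Of 8 genes of glycerol metabolism, 0 were called higher and 4 lower in C stomach, against 22.7% and 22.3% of all tested probes, with a median of -0.57. In OH rats 0 and 5 were called, against 19.2% and 19.1%, with a median of -0.87. The 4 were Gpd1, a glycerol-3-phosphate dehydrogenase (-2.46, adjusted p = 1.91e-06), Dgat1, which makes triglyceride (-2.02, adjusted p = 4.49e-05), Gk, glycerol kinase (-1.02, adjusted p = 0.00104), and Pnpla2, a triglyceride lipase (-0.55, adjusted p = 0.0235). Aqp7 was lower in stomach too, while Aqp3 was higher.

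The effect of obestatin was then asked within each tissue. In stomach 0 of the 8 genes were called between OH and C, against 0% of all tested probes in limma, where the smallest adjusted p over all probes was 0.0544. Without adjustment 1 of the 8 genes, Car3, had a p under 0.05, as did 2247 probes. The methods' own test, ANOVA followed by Tukey's HSD, gave 709 probes and again 0 of the 8 genes. As run here, the ANOVA over all groups was adjusted over probes and the Tukey p was not. A probe can pass the ANOVA through tissue alone, so the 709 probes are not a count adjusted for treatment. The arrays did not overlap for 1 of the 8 genes, against 7.6% of all tested probes.

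That gene was Car3, whose C stomach arrays (5.65 to 7.06) lay above the OH stomach arrays (0.13 to 5.47) by a gap of 0.18. The lowest array, OH stomach replicate 2, was not well above background in either channel. The difference was -2.39 with a 95% interval from -4.68 to -0.10 and did not pass in limma (adjusted p = 0.458). In Cy5 alone the C and OH ranges overlapped, at 7.56 to 9.33 against 1.54 to 8.79 on the log2 scale before normalization between arrays. The Cy3 signal of the pool was higher by 0.55 on the OH stomach slide, where 5 of 8 spots were well above background against 0 of 8 on the C slide. Without OH stomach replicate 2, the array low in adipocyte markers, the difference was -1.10 (adjusted p = 0.636), and with normexp and loess it was -0.69 (adjusted p = 0.632). It was larger with scale normalization between arrays (-3.52, adjusted p = 0.0742) and with array weights (-3.46, adjusted p = 0.0604). The mean of the 13 striated muscle markers moved the same way, at 2.26 in C stomach (-0.86 to 3.72) and 0.12 in OH stomach (-0.50 to 0.78), and that of the 6 adipocyte markers was 1.28 (0.52 to 1.60) and 0.56 (-1.14 to 1.17). Their part in the Car3 difference was not tested. The direction was lower in OH under every setting run.

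For the other genes in stomach the 95% intervals all included 0. The differences between OH and C were 0.34 for Aqp1 (-0.59 to 1.27), -0.72 for Aqp3 (-1.89 to 0.46), -0.41 for Aqp5 (-1.71 to 0.89) and 0.27 for Aqp7 (-0.81 to 1.36). They were 0.12 for Aqp8 (-0.82 to 1.06), -0.21 for Car2 (-0.69 to 0.28) and 0.19 for Car4 (-1.50 to 1.88). The interval was narrowest for Car2, and for Car4 it allowed a change of over 1 log2 unit either way.

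In middle intestine 0 of the 8 genes were called, against 0.368% of all tested probes. None had an unadjusted p under 0.05, against 2213 probes, and the smallest adjusted p among the genes was 0.643, for Aqp8. The methods' own test, with the same limit as in stomach, gave 936 probes and 0 of the 8 genes. The arrays of OH and C overlapped for all 8 genes, where 5.86% of all tested probes did not overlap.

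In the intestine the differences were -0.026 for Aqp1 (-0.96 to 0.90), 0.72 for Aqp3 (-0.46 to 1.89) and 0.43 for Aqp7 (-0.65 to 1.51). They were 0.71 for Aqp8 (-0.23 to 1.65), 0.32 for Car2 (-0.16 to 0.81) and -0.71 for Car4 (-2.40 to 0.98). Aqp5 and Car3 passed the brightness filter through stomach, and most of their intestinal spots were not well above background. Aqp5 was well above it on 2 of 8 spots in C and 1 of 8 in OH, and Car3 on 2 of 8 and 4 of 8, so no size of change is read from them. The SD was 1.33 in OH and 0.75 in C for Aqp7, and 1.15 and 0.64 for Aqp8, and OH replicates 2 and 3 were the highest and the lowest arrays for both genes. These are also the arrays highest and lowest in enterocyte markers.

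**Figure D5:**
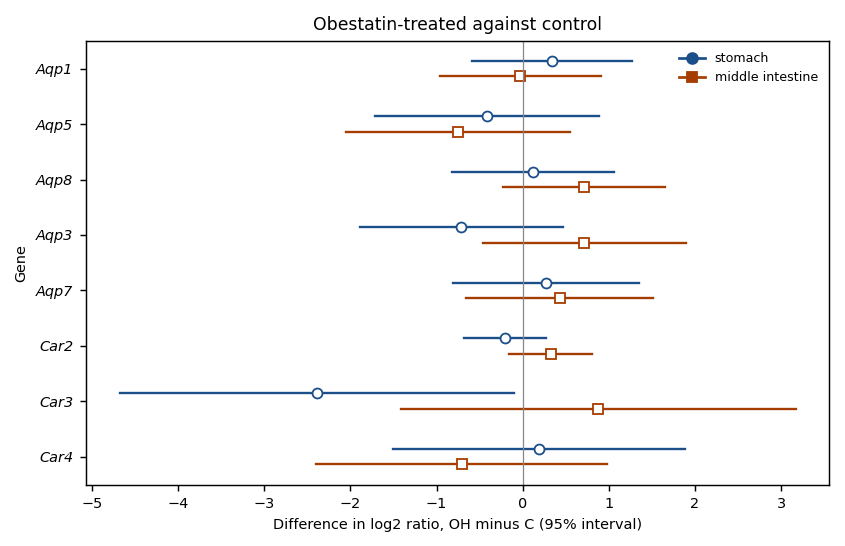
Difference in log2 ratio between OH and C rats for each gene in stomach (circles) and middle intestine (squares), with 95% intervals, open because no adjusted p was under 0.05. The interval leaves out 0 only for Car3 in stomach (-4.68 to -0.10), and the intestinal values of Aqp5 and Car3 come mostly from spots not well above background.

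A difference of the obestatin response between the tissues was tested as an interaction, in which 0 of the 8 genes were called, against 0% of all tested probes. Car3 was the single gene with an unadjusted p under 0.05, as had 1238 probes, and the smallest adjusted p among the 8 genes was 0.836. The Car3 estimate of -3.27 includes its intestinal values, mostly from spots not well above background, so no size is read from it. In the 4 related lists (other aquaporins, other carbonic anhydrases, transporters and glycerol metabolism) 0 genes were called between OH and C in either tissue.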

How the data were processed

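For each of the 16 arrays the authors deposited Agilent Feature Extraction output with the spot intensity in Cy5 and Cy3, background-subtracted and Lowess-normalized (version 10.10.1.1 in the file headers, 10.7.3.1 in the submitters' processing notes), and a table of Cy5-to-Cy3 ratios on the log10 scale. That table equalled the scanner output to within 0.005, and all its columns were matched to arrays. Arrays were grouped by the labels.

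Log2 ratios were computed per spot, outlier and control spots were set aside, and spots of a probe were averaged. Probes were kept if well above background in Cy5 (at least 0.5 of the spots) on all 4 arrays of a group, with at least 3 values in each group, leaving 21174. Group means over all 16 arrays were fitted in limma 3.58.1 under R 4.3.3 without a block, with Benjamini-Hochberg adjustment over all kept probes, after a test on simulated data. Probes not well above background can enter the processed intensity as surrogate values, and which ones did was not read. Folds of dim probes are therefore uncertain, and the number of arrays limits the precision. P-values measure the spread between arrays. Each gene had 1 probe. Alternatives covered background, normalization, channel, filters, weights, test, a replicate block and leaving out arrays, and 1 more was chosen after seeing the data: C stomach replicate 2 and OH stomach replicates 2 and 4 left out together. The genes, lists, named-gene rule (all members, tested genes of both families, and the 4 called genes with the largest difference in the other related lists) and tests were chosen with earlier results of these data known. Colon and pancreas markers were also listed: 7 of 9 tested pancreas genes were called higher in C stomach and 6 in OH stomach. Symbols and coordinates are those of the array design on rn4, and all 8 symbols matched a RefSeq table of GRCr8 by accession.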

Additional observations from a re-analysis of the deposited data

Results flagged for a closer look

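Of 32 sets of 4 arrays (8 genes in 4 groups), 3 held an array far from the other 3, where chance gives about 1 in 20, or 1.6. For Aqp3 in C stomach, replicate 2 (-0.52 against 1.35 to 1.65) took up 0.865 of the range of its group. For Car3 in OH stomach, replicate 2 (0.13 against 4.99 to 5.47) took up 0.911, and its spots were not well above background in either channel. For Car4 in OH stomach, replicate 3 (-1.45 against 0.06 to 0.24) took up 0.890.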

How the results depend on the processing

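The number of genes called stayed within 5 to 8 of 8 for C rats between tissues, 5 to 7 for OH rats, and 0 between OH and C and for the interaction, under every setting run, including the 3 stomach arrays left out together. No called value changed sign. With the replicate number as a block, 7 and 6 genes were called between tissues and 0 between treatments. Deviations of same-numbered stomach and intestinal arrays correlated at 0.06 to 0.25 in C and -0.12 to 0.32 in OH rats. Differently numbered arrays correlated at -0.16 to 0.076 in C and -0.34 to 0.30 in OH rats. These values do not settle whether a number marks the same rat, and the main fit used no pairing. The changes of sign were all in differences between OH and C that were not called. In stomach, Aqp8 was -0.020 with normexp and loess, Car2 0.036 in Cy5 alone, Aqp1 -0.071 with array weights, and Car4 -0.43 with 3 stomach arrays left out together. Leaving out 1 array gave -0.061 to 0.67 for Aqp1 and -1.05 to 0.13 for Aqp5, positive without OH stomach replicate 4. In middle intestine, Aqp1 was 0.010 with array medians subtracted, 0.085 in Cy5 alone and 0.12 with array weights. Leaving out 1 array gave -0.24 to 0.22 for Aqp1 and -0.052 to 0.94 for Aqp7. The cause was not tested. Car3 between tissues in OH rats was 3.57 (adjusted p = 0.0145) and Car4 -2.90 (adjusted p = 0.0618) with those 3 arrays left out. A slide block and another probe per gene could not be run, because each group lay on 1 slide and each gene had 1 probe. The filter for signal on all 16 arrays left out Aqp5 and Car3.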
